A study of Homo sapiens with 4 samples.

Results

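The dual-specificity MAP kinase phosphatases are encoded by the DUSP genes. Members were all gene probes of the array whose gene name was 1 of 10 fixed names (DUSP1, DUSP2, DUSP4, DUSP5, DUSP6, DUSP7, DUSP8, DUSP10, DUSP14 and DUSP16). Each of the 10 genes had 1 probe, out of 14297 gene probes for 14272 gene names in all, and 8 of the 10 passed the filter on dim probes and could be fitted. After 4 h with AC-1041, 6 of these 8 genes had a higher transcript level than in control cells and none had a lower level, where 23.2% of all 8852 probes fitted were called higher and 13.1% lower (limma, adjusted p under 0.05). DUSP2, among the 6, passed that filter only through its treated channel. The number called higher was 2 in a fit without a dye term. It was 1 of the 2 genes left where every channel had to be well above background. On these arrays DUSP1 had the largest ratio, 4.64-fold, followed by DUSP10, DUSP8 and DUSP16, the phosphatases that prefer JNK and p38, which rose 2.24-fold, 2.08-fold and 1.86-fold. Of the ERK-selective genes among the 10, DUSP5 rose 1.69-fold. The signals of DUSP6 and DUSP7 were not well above background in either channel of any array.

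K562 is a human erythroleukemia line that depends on the BCR-ABL kinase. The RNA of cells given AC-1041, which the labels describe as a thalidomide analog, was hybridised with the RNA of control cells of the same line and time on each of 4 two-colour arrays. The labels call the control cells untreated and give no dose, whereas the methods describe a DMSO vehicle and state a concentration. The treated cells' RNA was labelled with Cy5 for the first pair of arrays (1 and 2) and with Cy3 for the other pair (3 and 4). The methods mention quadruplicate treated and control samples, but neither they nor the labels say whether each array carries a separate culture. The p-values below therefore measure the spread between these arrays, which may be technical.

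MAP kinases are switched on when a threonine and a tyrosine of their activation loop are phosphorylated, and a MAP kinase phosphatase removes both phosphates. Most of these phosphatases have a docking domain that sets which kinases they bind. DUSP1, DUSP2 and DUSP4 are nuclear enzymes that act on ERK, JNK and p38. DUSP5, DUSP6 and DUSP7 prefer ERK, whereas DUSP8, DUSP10 and DUSP16 prefer JNK and p38, and DUSP14 is a small enzyme without the docking domain. Many of these genes are known as early response genes that feed back on the kinases that induce them. A transcript ratio says nothing of the activity of the enzyme or of the kinases.

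The promoter sequences of members with the higher ratios are shown first, because known regulators of early response genes bind short motifs there. They were taken from RefSeq (GRCh38.p14), which held a window from 250 bases before to 50 after the start for 8 of the 10 genes (all but DUSP4 and DUSP5), in 9 windows, and the bases before the start are printed 5′ to 3′ on the strand of the gene. Capitals mark TGACG in either orientation, the core of the cAMP response element (CRE) TGACGTCA bound by CREB and ATF proteins. The full CRE contains TGACG on both strands, so both motifs overlap. DUSP1 and DUSP8 are shown as the members that hold the full CRE, and DUSP10 (the more upstream of its 2 annotated starts) and DUSP16 as members that rose and hold no match in the printed bases.
DUSP1 (chr5:172771196-172771445, minus strand): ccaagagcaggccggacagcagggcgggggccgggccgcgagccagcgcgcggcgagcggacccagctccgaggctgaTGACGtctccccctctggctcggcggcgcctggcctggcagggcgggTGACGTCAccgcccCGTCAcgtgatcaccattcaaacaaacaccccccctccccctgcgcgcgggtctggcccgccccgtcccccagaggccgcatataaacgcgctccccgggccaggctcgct
DUSP8 (chr11:1572272-1572521, minus strand): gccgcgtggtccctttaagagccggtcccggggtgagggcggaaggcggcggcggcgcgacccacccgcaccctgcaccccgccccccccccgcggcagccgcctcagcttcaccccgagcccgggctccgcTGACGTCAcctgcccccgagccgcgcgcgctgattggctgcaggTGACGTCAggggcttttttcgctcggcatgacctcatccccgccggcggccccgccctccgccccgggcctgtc
DUSP10 (chr1:221742090-221742339, minus strand): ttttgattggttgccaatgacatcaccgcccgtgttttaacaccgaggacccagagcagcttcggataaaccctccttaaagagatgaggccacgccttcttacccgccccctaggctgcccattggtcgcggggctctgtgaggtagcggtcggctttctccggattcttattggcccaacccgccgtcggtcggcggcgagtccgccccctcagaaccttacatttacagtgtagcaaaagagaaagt
DUSP16 (chr12:12562864-12563113, minus strand): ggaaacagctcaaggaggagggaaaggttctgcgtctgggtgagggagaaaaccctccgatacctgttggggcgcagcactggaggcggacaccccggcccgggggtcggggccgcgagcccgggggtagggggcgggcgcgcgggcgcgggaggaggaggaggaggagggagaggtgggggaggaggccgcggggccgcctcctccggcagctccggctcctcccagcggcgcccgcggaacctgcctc

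The full CRE was found on either strand in 2 of the 9 DUSP windows and in 1.85% of all 35116 windows of that length. In DUSP1 its first base lay 125 bases before the start, and in DUSP8 it occurred at 118 and at 74 bases before the start. The shorter TGACG was found in 3 of the 9 windows, those of DUSP1, DUSP8 and the more downstream start of DUSP10, against 24.6% of all windows. The GC box GGGCGG occurred in 8 of the 9 windows and in 45% of all windows. The printed sequences of DUSP1 and DUSP8 were 74.4% and 76.8% G and C, where the median window had 58%, and the part of base composition in these counts was not tested.

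None of the 9 windows held the AP-1 motif TGANTCA (7.71% of all windows), the heat shock element core GAANNTTC (6.77%), the CEBP-ATF element TGATGNAA (3.62%) or the EGR motif GCGTGGGCG (0.795%). A match describes letters in this window only, and a window without one says nothing of the factor elsewhere. DUSP10, DUSP16 and DUSP2, which were called higher, held no full CRE in their windows. Neither did DUSP14, which was not called, nor DUSP6 and DUSP7, which were not well above background.

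Each array held 14833 features with no saturated spot. The treated channel had 6737 to 9416 probes well above background and the control channel 5941 to 9515, with the lower numbers on arrays 1 and 2. Log2 ratios of treated over control cells over all probes correlated at 0.81 between arrays 1 and 2 and at 0.94 between arrays 3 and 4, but at -0.28 to -0.11 between arrays of opposite dye. Which of dye and array quality these differences come from cannot be told apart. The limma fit had a term for the dye, so its standard errors (SE) rest on the spread between arrays of the same orientation, while each SD below is over all 4 arrays. Of the erythroid markers of K562, 11 of 13 on the array were well above background in both channels of all arrays, among them GATA1, LMO2, NFE2 and KLF1. Of the 7 epithelial and stromal markers 6 were above background in no channel, and EPCAM was in all. Fewer cells of a type and less RNA per cell cannot be told apart in bulk RNA.

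At a Benjamini-Hochberg adjusted p under 0.05 over all probes fitted, 6 of the 8 DUSP genes rose, against 23.2% of all probes. None fell, and at an unadjusted p under 0.05 in limma the number that fell was 0 as well. Among the calls of at least 1.8-fold were 4 of the 8, against 2.36% of all probes. The ratio was above 0 on all 4 arrays for 6 of the 7 fitted genes measured on all 4, against 16.3% of the probes so measured. All 6 genes that rose were measured on all 4 arrays and were above 0 on each. Of all 2052 probes called higher 53.7% were, where a probe with a spot left out counts among those that were not. The median log2 ratio of the 8 fitted genes was 0.83, beside 0.01 for all probes. The 8 genes passed a filter on signal that a gene high in 1 channel passes more easily, so these counts do not describe all 10. DUSP2 passed it through the treated channel alone, so its place in these counts is not independent of its direction.

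**Figure D1:**
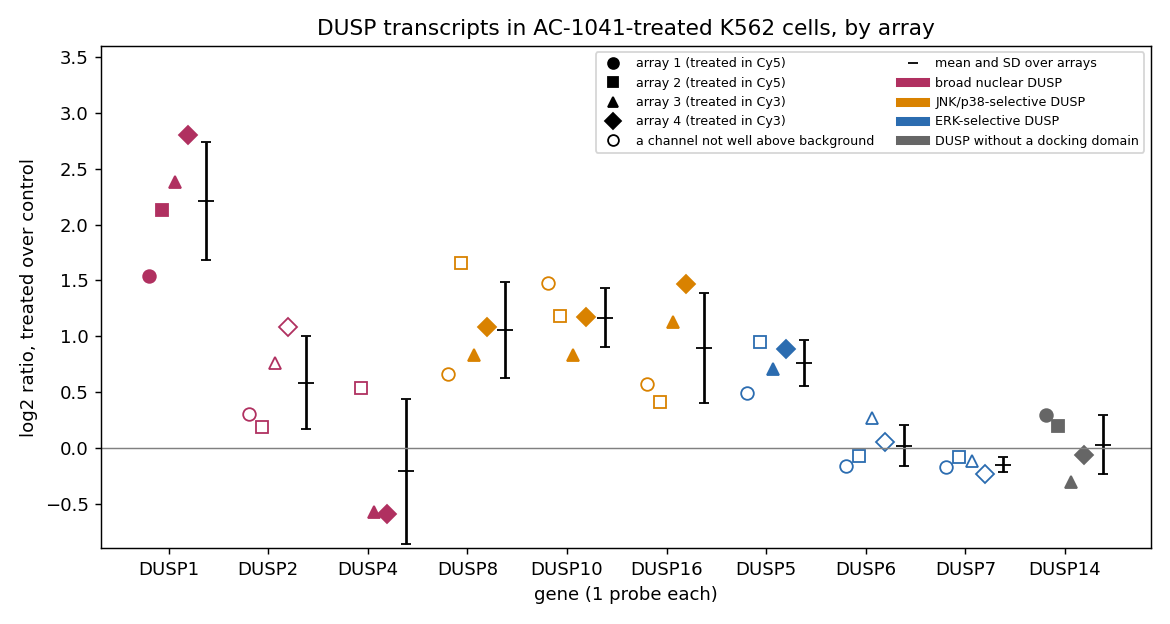
Log2 ratio of treated over control cells (vertical axis) of the 10 DUSP genes (horizontal axis), 1 point per array, with the mean and SD over arrays as bars and open points where a channel was not well above background. The 4 points of DUSP1 lie between 1.54 and 2.81, those of DUSP10, DUSP8, DUSP16, DUSP5 and DUSP2 all lie above 0, and those of DUSP4, DUSP6 and DUSP14 lie on both sides of 0.

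DUSP1, a nuclear phosphatase best known as an immediate early gene of growth factor and stress signals, had the largest ratio. The probe matches bases 172127902 to 172127961 of chromosome 5 (hg18). Its log2 normalized intensity was 13.04, 13.10, 12.98 and 13.17 in the control channel of arrays 1 to 4 and 14.58, 15.23, 15.36 and 15.97 in the treated channel. The channels did not overlap, and the control values lay within a range far narrower than that of the treated values. Its log2 ratio was 1.54, 2.13, 2.38 and 2.81 on the 4 arrays, with a mean of 2.21 ± 0.53 (SD, n = 4 arrays), an SE of 0.111 and a limma adjusted p of 2.15e-05. It ranked at position 6 of the 8852 probes from the highest ratio down. The ratio was 0.76 lower with treated RNA in Cy5 (mean 1.83) than in Cy3 (mean 2.59; limma adjusted p of the dye difference 0.0201).

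DUSP2, an inducible nuclear phosphatase first known from activated blood cells, was near the background. The probe matches bases 96173630 to 96173689 of chromosome 2 (hg18). The treated channel was well above background on arrays 3 and 4 and the control channel on no array. Its log2 ratio was 0.30, 0.19, 0.76 and 1.09 on arrays 1 to 4, which gave a mean of 0.58 ± 0.42 (SD, n = 4 arrays), an SE of 0.0757 and a limma adjusted p of 0.000937. All arrays were above 0, and the arrays with treated RNA in Cy3 (mean 0.92) lay above those with it in Cy5 (mean 0.24; limma adjusted p of the difference 0.0063). With control values below the lowest signal well above background raised to it on each array, the mean treated signal was 1.14-fold higher. That mean includes arrays 1 and 2, where the treated channel was not well above background, so it sets no lower bound. The mean log2 intensities were 8.90 in treated and 8.32 in control cells. The ratio moved by more than 1.5 times in some alternatives, to 1.19 with the processed signals of the scanner software and 1.30 in the authors' series table, and to 0.92 on arrays 3 and 4 alone and 0.24 on arrays 1 and 2 alone.

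DUSP4, the third nuclear member, did not move in a common direction. Its probe lies on chromosome 8. The spot was marked as an outlier on array 1 and left out there, and its log2 ratio was 0.54 on array 2, -0.57 on array 3 and -0.59 on array 4. The sign thus differed between the 1 array measured with treated RNA in Cy5 and both arrays with it in Cy3, with a difference of 1.12 between orientations (limma adjusted p 0.00137). The fitted log2 ratio over the orientations was -0.02 (95% confidence interval -0.22 to 0.17, limma adjusted p 0.853). Arrays 3 and 4 alone, where both channels were well above background, gave -0.58 with an adjusted p of 3.2e-07 in limma, and the series table gave 0.35 with an adjusted p of 0.0477, so the direction of DUSP4 is not settled by these arrays.

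DUSP10, a phosphatase of JNK and p38 that restrains innate immune signalling, had the smallest spread among the JNK and p38 group. The probe matches bases 219942396 to 219942455 of chromosome 1 (hg18). Log2 intensities were 9.02, 9.77, 9.61 and 9.70 in the control channel and 10.50, 10.96, 10.44 and 10.87 in the treated channel of arrays 1 to 4. Every treated value lay above every control value, although the control channel was well above background only on arrays 3 and 4. The log2 ratio was 1.48, 1.18, 0.83 and 1.17, with a mean of 1.16 ± 0.26 (SD, n = 4 arrays), an SE of 0.0839 and a limma adjusted p of 8.09e-05. The dye orientations gave 1.33 and 1.0, a difference past no threshold (limma adjusted p 0.128). 

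DUSP8, a phosphatase of JNK and p38 known from brain and heart, had a probe on chromosome 11 of hg18, from 1534094 to 1534153. Its control channel was at log2 intensities of 9.21, 8.49, 9.37 and 9.12 and its treated channel at 9.87, 10.14, 10.20 and 10.20. No treated value reached down to a control value, and the control channel was well above background on arrays 3 and 4 only. The log2 ratio was 0.66, 1.65, 0.83 and 1.08, a mean of 1.06 ± 0.43 (SD, n = 4 arrays) with an SE of 0.144 and a limma adjusted p of 0.0012. Array 2 gave the highest ratio, and it was also the array with the lowest control signal for this probe. Means by orientation were 1.16 and 0.96 (limma adjusted p of the difference 0.574).

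DUSP16, a JNK phosphatase that shuttles between nucleus and cytoplasm, had a probe on chromosome 12 of hg18, from 12520637 to 12520696. In the control channel its log2 intensity was 9.70, 10.46, 9.09 and 8.97, and in the treated channel 10.27, 10.87, 10.22 and 10.43. These ranges overlapped, since the control signal of array 2 exceeded the treated signal of arrays 1, 3 and 4, while treated exceeded control within every array. The log2 ratio was 0.58, 0.41, 1.13 and 1.46, a mean of 0.89 ± 0.49 (SD, n = 4 arrays) with an SE of 0.0781 and a limma adjusted p of 0.000193. The ratio was lower with treated RNA in Cy5 (mean 0.49) than in Cy3 (mean 1.30; limma adjusted p of the difference 0.00338), and the control channel was well above background only on the Cy3 arrays.

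DUSP5, a nuclear phosphatase specific for ERK and induced by it, had a probe on chromosome 10 of hg18, from 112260890 to 112260949. Log2 intensities were 8.23, 7.94, 9.07 and 9.04 in the control channel and 8.72, 8.88, 9.78 and 9.93 in the treated channel. Both channels were dim on arrays 1 and 2 and well above background on arrays 3 and 4, and treated exceeded control within each array. The log2 ratio was 0.49, 0.94, 0.71 and 0.89, a mean of 0.76 ± 0.20 (SD, n = 4 arrays) with an SE of 0.0876 and a limma adjusted p of 0.000592. The orientations gave 0.72 and 0.80 (limma adjusted p of the difference 0.71).

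DUSP6 and DUSP7, cytoplasmic phosphatases of ERK, were not well above background in any channel. The DUSP6 probe matches bases 88266275 to 88266334 of chromosome 12 (hg18), and its log2 intensities ran from 7.75 to 8.80. Its log2 ratio was -0.16, -0.07, 0.26 and 0.05, with a mean of 0.02 ± 0.19 (SD, n = 4 arrays). The DUSP7 probe matches chromosome 3 of hg18 from 52063392 to 52064926, and its log2 intensities ran from 8.11 to 8.83. Its log2 ratio was -0.17, -0.08, -0.12 and -0.23, with a mean of -0.15 ± 0.07 (SD, n = 4 arrays). A ratio of signals at this level gives no direction, although those of DUSP7 were below 0 on all 4 arrays, as were 9.59% of the fitted probes measured on all arrays.

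DUSP14, the small phosphatase without a docking domain, was measured well above background in both channels of every array. The probe matches bases 32947351 to 32947410 of chromosome 17 (hg18). Log2 intensities were 12.81, 13.16, 13.22 and 13.14 in the control channel and 13.11, 13.35, 12.91 and 13.08 in the treated channel, so that the channels overlapped. The log2 ratio was 0.29, 0.19, -0.30 and -0.06, a mean of 0.03 ± 0.27 (SD, n = 4 arrays) with a 95% confidence interval of -0.13 to 0.19 and a limma adjusted p of 0.777. Its sign followed the dye (difference 0.42, limma adjusted p 0.0326).

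**Figure D2:**
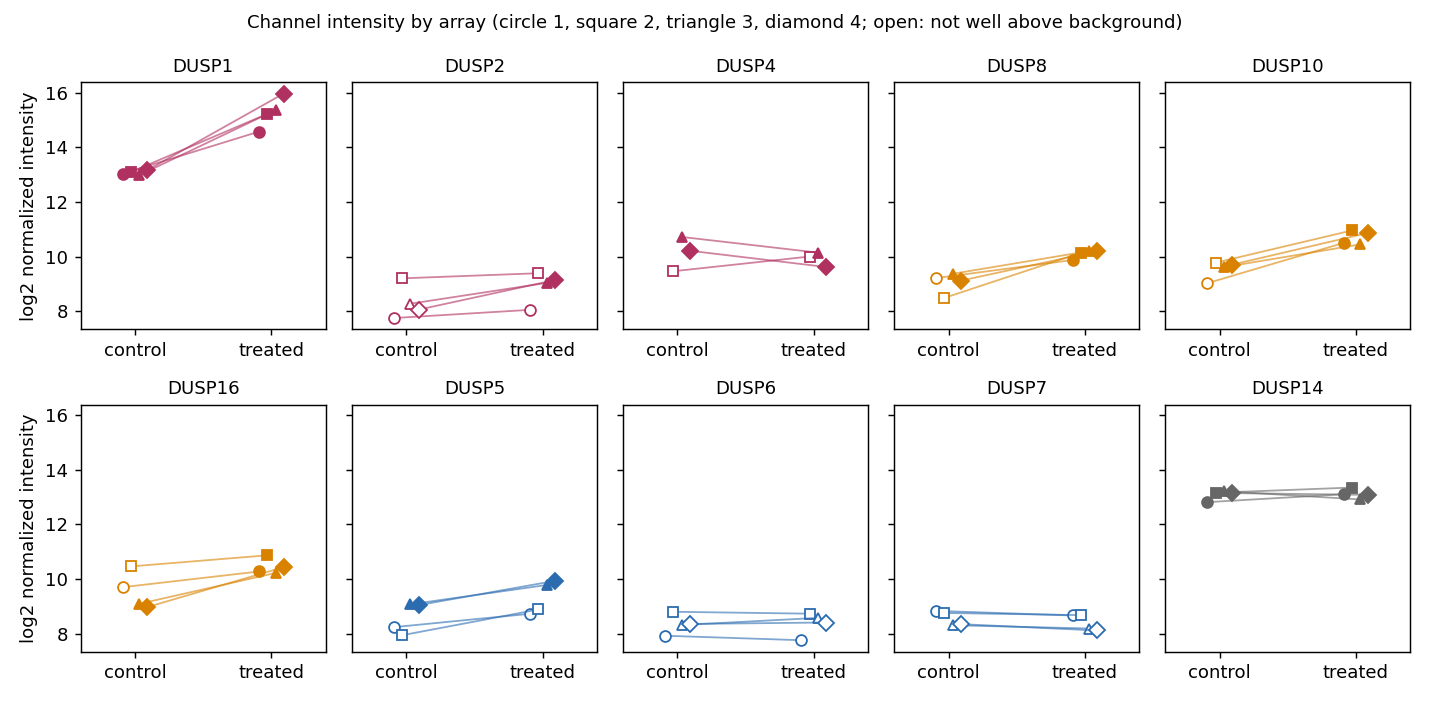
Log2 normalized intensity of the control and the treated channel (vertical axis) for each of the 10 DUSP genes, with a line joining the channels of an array and open points where a channel was not well above background. The lines of DUSP1 rise from between 12.98 and 13.17 to between 14.58 and 15.97, the lines of DUSP8, DUSP10, DUSP16, DUSP5 and DUSP2 rise on each array, and those of DUSP14 run nearly level.

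Compared by target class, all 3 JNK and p38 members rose, with a median log2 ratio of 1.06. Of the ERK class only DUSP5 could be fitted, at 0.76, so that class rests on 1 gene of 3. DUSP9, a phosphatase that prefers ERK but is not among the fixed names, was at -0.20 and not called. Array by array, the median of the JNK and p38 members exceeded DUSP5 by 0.17, 0.24, 0.13 and 0.28, with a mean of 0.20 ± 0.07 (SD, n = 4 arrays). The difference had the same sign on all 4 arrays and was the same size in both dye orientations, at 0.20 in each. On arrays 1 and 2, however, neither channel of DUSP5 was well above background. Nor were the control channels of DUSP8, DUSP10 and DUSP16 there. On array 2 DUSP16 (0.41) lay below DUSP5 (0.94). Members of a class are not replicates, and the difference was not tested. The broad nuclear class had a median of 0.58, but it held both the highest fitted ratio (DUSP1) and the lowest (DUSP4), and its median rose to 1.34, 1.49 and 1.31 without arrays 2, 3 and 4 in turn, because DUSP4 then could not be fitted.

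In the order of the fitted log2 ratios, DUSP1 stood above DUSP10 by 1.05 ± 0.72 (SD, n = 4 arrays) and did so on all 4 arrays. The next genes in the order were closer than their spread. DUSP10 exceeded DUSP8 by 0.11 ± 0.53 (SD, n = 4 arrays), DUSP8 exceeded DUSP16 by 0.16 ± 0.75 and DUSP16 exceeded DUSP5 by 0.14 ± 0.49. DUSP2, whose control channel was well above background on no array, has no settled place in this order. It came after DUSP5 in the fit, but with the processed signals its 1.19 stood beside 1.18 for DUSP16 and 0.96 for DUSP5, and in the series table its 1.30 stood beside 1.23 and 1.01. DUSP14 and DUSP4 differed by 0.15 ± 0.45 on the 3 arrays that measured both.

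A dye difference at an adjusted p under 0.05 in limma was found for 5 of the 8 fitted genes (DUSP1, DUSP2, DUSP4, DUSP14 and DUSP16), a share near the 57.5% of all probes. DUSP1, DUSP2 and DUSP16 had the higher ratio with treated RNA in Cy3, and DUSP4 and DUSP14 had the higher ratio with it in Cy5. For DUSP5, DUSP8 and DUSP10 both orientations gave values within 0.33 of each other. Arrays 1 and 2 alone called 5 genes higher, all but DUSP2 of the 6 (log2 ratio 0.24, limma adjusted p 0.142). Without the dye term, the spread between orientations enters the error, and limma then called DUSP1 (adjusted p 0.0347) and DUSP10 (adjusted p 0.0448) higher, against 0.559% of all probes. The other adjusted p-values of that fit were 0.0754 for DUSP5, 0.0784 for DUSP8, 0.136 for DUSP16 and 0.241 for DUSP2. Taken 1 gene at a time, the exact sign-flip permutation test over 4 arrays (two-sided) cannot go below p = 0.125, which it gave for each gene that was above 0 on all arrays. The study chose DUSP1, DUSP8 and DUSP10 for mention from these same arrays, so their direction here is no independent evidence. The study also measured these genes by QRT-PCR in K562 and other cell lines, which the arrays do not hold.

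**Figure D3:**
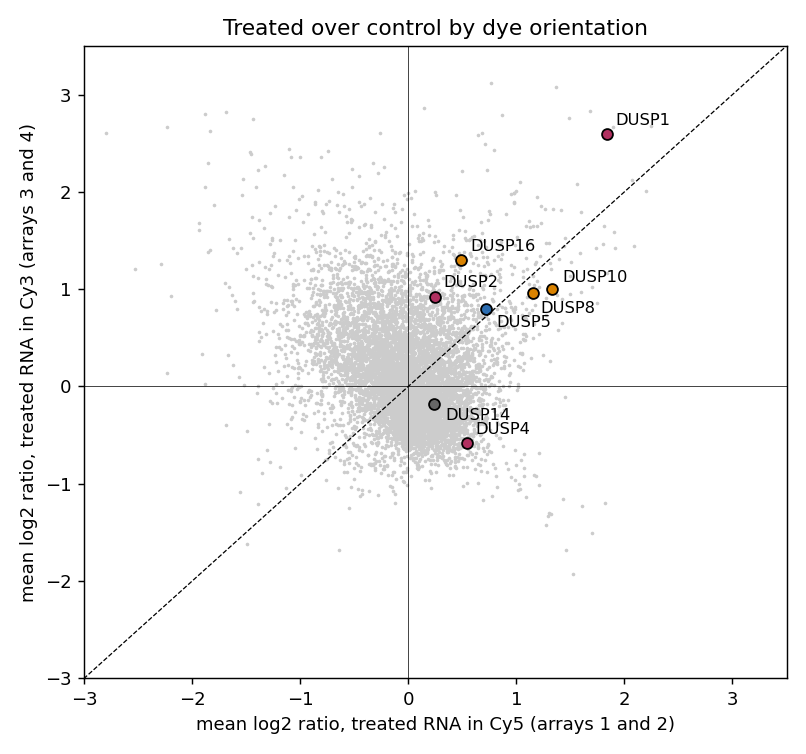
Mean log2 ratio of treated over control cells on arrays 1 and 2 (horizontal axis, treated RNA in Cy5) against arrays 3 and 4 (vertical axis, treated RNA in Cy3), with the 8 fitted DUSP genes in colour and the fitted probes measured on all 4 arrays in grey. The horizontal value of DUSP4 is that of array 2 alone. DUSP5, DUSP8 and DUSP10 lie near the dashed line of equal ratios, DUSP1, DUSP2 and DUSP16 above it, and DUSP4 and DUSP14 fall below it with opposite signs on the axes.

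The other DUSP genes, mostly atypical phosphatases or enzymes not known as MAP kinase phosphatases, were spread around 0. DUSP9, a MAP kinase phosphatase that prefers ERK, is among them and was not called (log2 ratio -0.20, limma adjusted p 0.117). Its control channel was well above background on 2 arrays, and it is named after its value was seen. Of 14 listed, 13 were on the array and 11 were fitted; 4 rose (36.4%, against 23.2% of all probes) and 2 fell (18.2%, against 13.1%), with a median log2 ratio of -0.06. DUSP3, a small phosphatase that can dephosphorylate ERK and JNK, rose on all arrays (log2 ratios 1.30, 1.03, 0.59 and 0.69, fitted value 0.90, limma adjusted p 0.000127). DUSP18 rose by 0.28 and DUSP13 fell by 0.22 on the log2 scale, each in the same direction on 4 arrays. DUSP22 and DUSP12, which rose by 0.32 and 0.30, and DUSP15, which fell by 0.41, are named after their values were seen and did not keep 1 direction over the arrays. The count of 4 fell to 1 with the processed signals and to 2 with the series table, and to 2, 1 and 1 without arrays 2, 3 and 4, while DUSP3 kept its call in all of these. DUSP18 kept its call in 10 of 15 alternatives and DUSP13 in 6 of 16. The number that fell was 4, 1, 1 and 0 without arrays 1 to 4 in turn.

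The MAP kinases themselves, the substrates of the DUSP enzymes, were called about as often as all probes. Of 13 on the array 9 were fitted, with 2 higher (22.2%, against 23.2% of all probes), 1 lower (11.1%, against 13.1%) and a median log2 ratio of -0.06. None of the 3 had 1 direction on all 4 arrays. They are MAPK8, which encodes JNK, at 0.42, MAPK6, an atypical kinase, at 0.45, and MAPK12, a p38 kinase, at -0.25, named after their values were seen. The number higher was 1 without array 2, 3 or 4, and the number lower was 0 without array 3 or 4.

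Among the kinases upstream, 24 of 28 MAP2K and MAP3K genes were fitted, of which 9 rose (37.5%, against 23.2% of all probes) and 2 fell (8.33%, against 13.1%), with a median log2 ratio of 0.15. Of the 9 higher, 5 kept that direction on all 4 arrays, and of the 2 lower, 1 did. MAP2K4, named after its values were seen, did not, at -0.14, -0.01, 0.96 and 0.68. MAP3K6, a partner of the stress kinase ASK, rose by 0.79 on the log2 scale. MAP3K8, which activates ERK in inflammatory signalling, rose by 0.67. MAP3K1 and MAP3K14, which act in JNK and NF-kappaB signalling, rose by 0.63 and 0.45. The number that rose fell to 5 and 4 without arrays 3 and 4, and the number lower went from 2 to 1 and 0, while MAP3K14 kept its call under 8 of 15 alternatives.

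The MAP kinase phosphatases outside the DUSP family had 9 of 10 genes fitted, of which 5 rose (55.6%, against 23.2% of all probes) and 1 fell (11.1%, against 13.1%), with a median log2 ratio of 0.28. PPM1D, a phosphatase of p38 that is induced through p53, rose most (log2 ratio 1.0, limma adjusted p 4.92e-05). PPM1B and PPM1A, which act on MAP kinases and on the kinases above them, rose by 0.69 and 0.39. PTPRR, a tyrosine phosphatase of ERK and p38, rose by 0.56. PPP2CB rose by 0.28 and PTPN7, a tyrosine phosphatase of blood cells, fell by 0.29, both named after their values were seen. All 6 kept 1 direction on the 4 arrays, but the number that rose was 3 without array 3, and PTPN7 lost its call without array 3 or 4.

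ERK targets and feedback genes had 14 of 19 fitted, with 7 higher (50%, against 23.2% of all probes), 1 lower (7.14%, against 13.1%) and a median log2 ratio of 0.19. Of the 7 higher, 5 kept 1 direction on all 4 arrays. SPRY2, named after its values were seen, did not, at -0.23, -0.20, 0.58 and 0.63. The number higher was 4 where every channel had to be well above background. EGR1, an immediate early zinc finger factor, stood at 1.61, FOS at 1.04 and ETV5, an ETS factor downstream of ERK, at 1.03. IL8, now named CXCL8, a chemokine, had a fitted value of 1.51, but its array ratios were 0.04, 0.25, 2.84 and 2.89, and the dye difference had a limma adjusted p of 1.49e-05. SPRY4, a feedback inhibitor of ERK signalling, rose by 0.50, and CCND1, a cyclin, was the 1 that fell, by 0.75 on the log2 scale. Both are named after their values were seen. CCND1 was near the background, with the treated channel well above it on 1 array and the control channel on 2.

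JNK and p38 targets and partners had 14 of 18 fitted, with 7 higher (50%, against 23.2% of all probes), 2 lower (14.3%, near the 13.1% of all probes) and a median log2 ratio of 0.31. Of the 7 higher, 6 kept that direction on all 4 arrays. ATF2, named after its values were seen, did not, at -1.19, -0.40, 1.86 and 1.75. ATF3 rose by 2.10, JUN by 1.77, DDIT3 by 1.63 and ZFP36, whose product destabilises inflammatory transcripts, by 1.22 on the log2 scale. ATF3 and DDIT3 are also known as targets of the unfolded protein response. GADD45B and GADD45A, partners of p38 signalling, rose by 0.82 and 0.63, and MKNK2 and ELK1 fell by 0.40 and 0.33, all named after their values were seen. The number lower was 4 without array 2 and 0 without array 4. Without the dye term no gene of the other DUSP, MAP kinase, upstream kinase or phosphatase lists was called higher, 1 ERK target was (EGR1, limma adjusted p 0.0315), and 3 JNK and p38 targets were (ATF3, JUN and DDIT3).

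**Figure D4:**
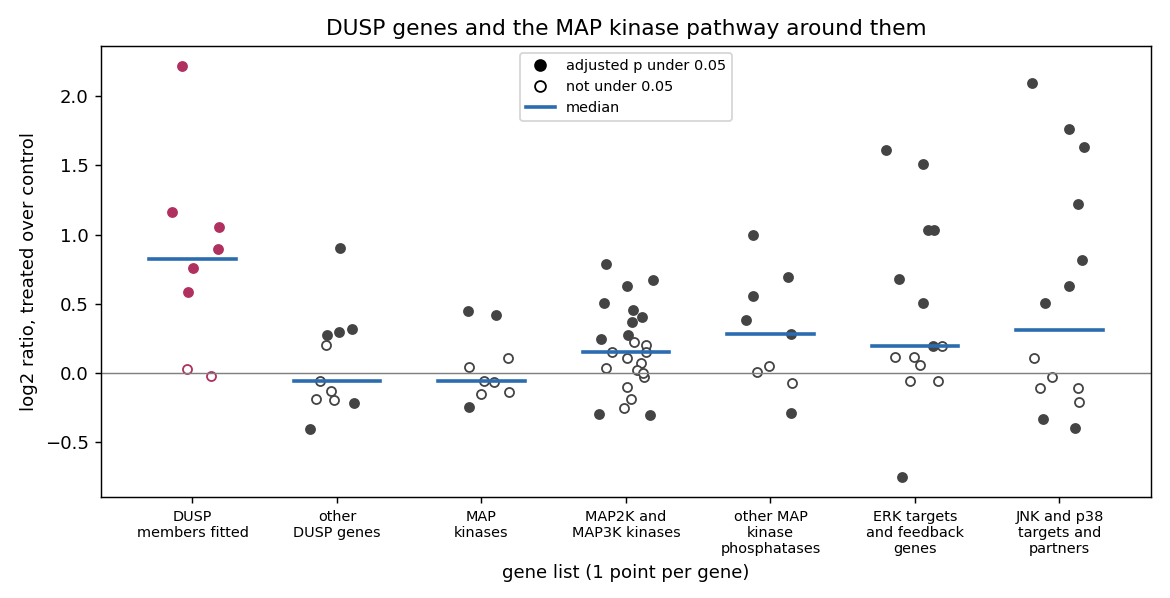
Fitted log2 ratio of treated over control cells (vertical axis), 1 point per gene, for the 8 fitted DUSP members and 6 lists of pathway genes (horizontal axis), filled where the adjusted p was under 0.05, with the median as a line. The median of the DUSP members is 0.83 and those of the other lists lie between -0.06 and 0.31.

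Over the 4 arrays, the genes with ratios nearest to those of DUSP1 by Euclidean distance, among 7991 probes measured on all arrays, were HERPUD1 (distance 0.407), CREBRF (0.458) and ZBTB21 (0.599), on the log2 scale. HERPUD1 had ratios of 1.83, 1.95, 2.60 and 2.74, so it shared the higher values of DUSP1 with treated RNA in Cy3. Nearest to DUSP10 were ZNF230 (0.279), ZFP36 (0.336) and SRXN1 (0.371). ZNF230 had ratios of 1.22, 1.11, 0.91 and 1.18. These points share the same 4 arrays and their dyes, and the distances are a description.

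Among the processing alternatives, DUSP1 kept its call in all 16 that fitted it, with log2 ratios from 1.83 to 2.59, and DUSP10 in all 15, with 1.0 to 1.42. DUSP8 kept it in 14 of 15 (0.81 to 1.31), DUSP5 in 14 of 15 (0.64 to 1.01) and DUSP16 in 14 of 15 (0.49 to 1.30), in each case all but the fit without the dye term. DUSP2 kept it in 13 of 15 (0.24 to 1.30), the exceptions being that fit and arrays 1 and 2 alone. The ratios of DUSP4 and DUSP14 crossed 0.

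**Figure D5:**
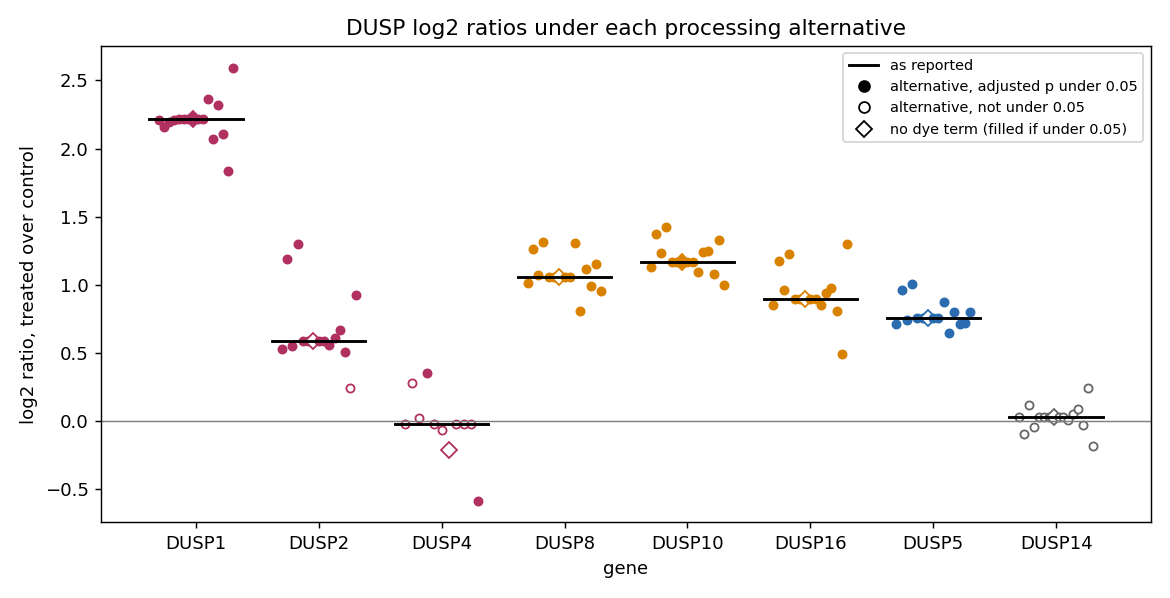
Log2 ratio of treated over control cells (vertical axis) of the 8 fitted DUSP genes under each processing alternative (points, filled where the adjusted p was under 0.05; diamonds, no dye term), with the value as reported as a line. The points of DUSP1 lie between 1.83 and 2.59, and the points of DUSP4 and DUSP14 lie on both sides of 0.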

How the data were processed

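On 4 Agilent arrays with a pair of dyes, hybridisation compared RNA of K562 cells after 4 h of AC-1041 with RNA of control cells. The authors quantified the scans with Agilent Feature Extraction 9.5.1.1. They deposited, for each spot and channel, the mean intensity, the local background and a processed intensity, and a log10 ratio of Cy5 over Cy3. The authors' series table of log10 ratios equalled these to within 0.001 for 99.9% to 100% of 14297 probes, once arrays 3 and 4 were turned in sign, and served as an alternative. The file headers name hg18 as the build of the probe positions.

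From the intensities, background was corrected with normexp (offset 50), control spots were dropped, and loess (span 0.3) normalized the log2 ratios of each array. Outlier marks removed 1.57% to 8.08% of probes. A probe was fitted if at least 1 of its channels was well above background on 2 or more arrays, with limma 3.58.1 in R 4.3.3. The model had terms for treatment and dye, and p-values were adjusted by Benjamini-Hochberg. Tested on simulated ratios for these 8852 probes, the fit recovered 87.5% of 200 probes with a log2 change of 1, and 3.31% of its calls were false. In the simulation only those 200 probes changed, all by the same amount, while the fit to the arrays called 3213. These shares therefore describe the simulation and not the calls reported here.

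The genes named are all 10 members, up to 4 of each pathway list (past the threshold, same direction on 4 arrays, largest ratios), the 3 nearest to DUSP1 and to DUSP10, and at most 4 of a marker list. The result of 1 marker list is not reported here. Where a gene had several probes, the brightest on average stood for it. The members and lists were chosen with earlier results of these data known. Alternatives changed the background correction, the scaling, the filter, the thresholds, the dye term, the variance prior and the array weights, or left out each array in turn; fits to arrays of 1 dye orientation were added after seeing the data. The number of arrays limits the precision.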

Additional observations from a re-analysis of the deposited data

How the results depend on the processing

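Of 118 values of the fitted DUSP genes over the alternatives, 105 kept their direction and their side of the threshold. With the direction kept, 5 fell short of the threshold and 1 passed it. The other 7 changed sign, among them DUSP4 in the series table, which passed the threshold as well. The number of members called higher was 6, also without each array in turn (6 to 6), but it was 1 where every channel had to be well above background, so that only 2 members were fitted, and 2 without the dye term. It was 7 in the series table, where DUSP4 was called higher (limma adjusted p 0.0477), and 5 on arrays 1 and 2 only. None was called lower except 1 (DUSP4) on arrays 3 and 4 only. DUSP14, the only member without a docking domain, was at -0.096 with the processed signals, -0.0473 in the series table and -0.183 on arrays 3 and 4 only, and at -0.031 to 0.089 with each array left out. DUSP4 was at 0.28 with the processed signals, 0.0197 with median centring and 0.35 in the series table. The median of the broad nuclear class was 1.19 with the processed signals, 1.30 in the series table, 2.21 with both channels well above background, 1.04 on arrays 1 and 2 only, 0.92 on arrays 3 and 4 only, and 0.56 to 1.49 with each array left out. The ERK-selective median was 1.01 in the series table and 0.0203 without a filter on dim probes, which brings in DUSP6 and DUSP7. The cause of these shifts was not tested where the genes fitted were the same. Over all probes, 63.9% of the 3213 calls were higher; the share was 46.2% with the processed signals and 79.5% with median centring (2286 higher, 589 lower), and the numbers were 50 and 4 without the dye term, 1081 and 380 without array 3 and 827 and 217 without array 4. The median of all probes moved by at most 0.08. All arrays lay on 1 slide with 1 scan day, so neither could be a block. Each log2 ratio is itself a paired value, treated against control within an array.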
